A study of Schizosaccharomyces pombe with 3 samples.

Results

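A set of 55 Schizosaccharomyces pombe genes had FPKM values (sequenced fragments scaled by gene length and library size) in the order T1 below T2 below T3, the libraries of cells grown with 3%, 5% and 8% glucose. The set was taken from the 444 genes that the deposited tables list, of which 177 had a value in all 3 libraries. Of these 177 genes, 79 rose in this order, and 24 of the 79 were left out by name. They are Tf2 retrotransposon copies or belong to groups such as Mediator, centromere, pheromone, redox and transporter genes. The redox and transport groups below thus lack some rising genes, among them gst2, obr1 and tna1. The cells of all 3 samples were the wild type strain 972h-, a haploid laboratory strain of fission yeast, and the glucose was present in the synthetic dextrose medium from the start of culture to harvest in mid-log phase. Each library held the pooled RNA of 3 replicates, whose origin in separate cultures is not stated, so every value below comes from 1 library per concentration. No test between concentrations was possible, and the differences between the replicates cannot be seen.

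The FPKM values themselves chose the members, so the order T1, T2, T3 and the size of each rise are given as a description. The tables list only genes that the authors called different in at least 1 of their comparisons, and a gene with all 3 values had been called in at least 2. A 95% counting interval, the exact Clopper-Pearson interval of the share of 1 library in the counts of a pair, stands beside the ratios of the members with the largest values. It covers counting error only. The counts and FPKM values together implied library scales of 5744764, 5888032 and 5819042 fragments for T1, T2 and T3. The basis of this scale is not stated and it is not read as the number of sequenced fragments; it shows only that the scales of the libraries were nearly equal.

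Glucose is the preferred carbon source of fission yeast, which ferments it. A receptor at the cell surface reports it to the cyclic AMP pathway and protein kinase A, and the repressor Scr1 keeps genes for the use of other carbon sources low while glucose is plentiful. The 55 members do not belong to a single pathway: by their annotation they fell into 11 role groups, from transport and redox enzymes to checkpoint kinases and vesicle traffic.

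All 55 members had been called between T3 and T1, where the table lists 367 genes. Their T3 to T1 ratios had a median of 3.18 over all 55, with SPBPB10D8.06c, which had no reads in T1, entered at a lower bound. Leaving that gene aside, the ratios ran from 2.08 to 7.75. All 55 were at least 2-fold higher in T3, and 11 of them at least 4-fold. Among all 383 genes of the tables with values in both libraries, 61.4% were at least 2-fold higher and 34.5% at least 2-fold lower in T3, and the median ratio was 2.15. Among the 177 genes with 3 values, 48.6% were at least 2-fold higher in T3. Because the rule used this contrast, nothing is read from that difference. The counting interval of the ratio lay above 1 for 54 of the 54 members that have one, against 48.8% of the 170 genes with 3 values for which an interval could be had. The calls and the rule built this in too, and nothing is read from it.

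Most of these genes were scarce. The median member had 6.58, 11.1 and 20.4 FPKM (T1, T2, T3), against medians of 61.0, 78.2 and 32.3 FPKM over the other 122 genes with 3 values. These others include 37 falling genes and 54 highest in T2. Since the rule used the same values, the contrast is in part built in and is given as a description only. In T1, 38 members lay under 10 FPKM and 8 had fewer than 20 counts. In T3, 5 members lay under 10 FPKM and 10 reached 100 FPKM. The summed level of the members was 1339, 1869 and 3971 FPKM (T1, T2, T3), and plr1 alone gave 982 FPKM of the T3 sum.

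Oxidoreductases held the most abundant member. The gene plr1 encodes pyridoxal reductase, which reduces the vitamin B6 form pyridoxal to pyridoxine, and it had 368, 467 and 982 FPKM (T1, T2, T3). Its T3 to T1 ratio was 2.67 (2.54 to 2.80), and most of the difference lay between T2 and T3. A second gene annotated as a pyridoxal reductase, akr7, was scarce, with 4.43, 5.50 and 13.8 FPKM (T1, T2, T3) and a T3 to T1 ratio of 3.11 (2.11 to 4.68). For akr7 the T2 to T1 ratio was 1.24 with a counting interval of 0.781 to 1.99, so its first step was not detectable at this depth.

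The predicted short chain dehydrogenase gene SPCC663.08c had 27.2, 34.7 and 122 FPKM (T1, T2, T3). Its T3 to T1 ratio was 4.51 (3.81 to 5.37) and its T3 to T2 ratio 3.53 (3.03 to 4.12), with T1 and T2 close together. The predicted oxidoreductase gene mug72, from a screen of genes upregulated in meiosis, had 3.16, 5.13 and 18.1 FPKM (T1, T2, T3), a T3 to T1 ratio of 5.71 (4.12 to 8.09) and a T3 to T2 ratio of 3.52 (2.70 to 4.64). The predicted NADP-dependent oxidoreductase gene SPAPB24D3.08c had 71.2, 79.3 and 208 FPKM (T1, T2, T3). SPCC162.03, a predicted dehydrogenase gene, had 8.10, 8.73 and 17.7 FPKM (T1, T2, T3). All 6 oxidoreductases were called between T3 and T2 and none between T2 and T1. Of all 55 members, 42 were called between T3 and T2 and 14 between T2 and T1. By the annotation words dehydrogenase, reductase, oxidase and the like, 30 of 227 such genes were in the tables, with 18 up and 8 down between T3 and T1, 11 up and 8 down between T3 and T2, and 1 up and 3 down between T2 and T1. Of all 5113 coding genes, 8.08% were in the tables, and each list count below is to be read beside this share.

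Of the 4 other enzymes, hem4 was the most abundant. It encodes uroporphyrinogen-III synthase of haem synthesis and had 97.8, 100.2 and 208 FPKM (T1, T2, T3), so that T1 and T2 differed by less than counting error and the T3 to T1 ratio was 2.13 (1.99 to 2.27). It overlaps spk1 on the other strand, and how reads of the overlap were assigned is not stated. The bifunctional gene rib2, annotated with a riboflavin-specific deaminase, had 2.71, 3.74 and 10.04 FPKM (T1, T2, T3). The carboxylesterase family gene SPCC417.12 had 5.21, 7.30 and 16.3 FPKM (T1, T2, T3). The predicted hydrolase gene SPBC17G9.12c divided its rise evenly, with 1.62, 3.42 and 7.21 FPKM (T1, T2, T3) and a ratio of 2.11 at each step; its T3 level was 4.45-fold that of T1 (2.61 to 8.03). Its 17, 37 and 77 counts leave wide intervals, and it was not called between T2 and T1 although its ratio there passed 2.

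Membrane transport held 6 members. The proton pump gene pma2, the second plasma membrane H+-ATPase beside the abundant Pma1, had 2.73, 5.25 and 11.6 FPKM (T1, T2, T3). Its T3 to T1 ratio was 4.24 (3.09 to 5.93), with near-equal steps. The vacuolar ABC transporter gene abc2, whose product exports glutathione conjugates, had 13.9, 19.9 and 40.8 FPKM (T1, T2, T3) and a T3 to T1 ratio of 2.94 (2.61 to 3.31). The nickel transporter gene nic1 had 9.0, 10.5 and 23.98 FPKM (T1, T2, T3) and a T3 to T1 ratio of 2.66 (2.24 to 3.18).

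In nic1 nearly all of the difference lay between T2 and T3, and the same was true of the last transporter genes with reads in every library. The amino acid transporter gene dip5 had 3.21, 3.30 and 7.88 FPKM (T1, T2, T3). The predicted transporter gene SPBC530.02 had 5.16, 5.75 and 18.1 FPKM (T1, T2, T3). By annotation, 36 of 193 transporter genes were in the tables. With T3 set against T1, 14 stood higher and 10 lower, where 61.4% and 34.5% of all genes of the tables did. Against T2 it was 9 higher and 13 lower, where the shares were 36.9% and 46.5%.

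SPBPB10D8.06c, the sixth, is a special case. It had 0, 159.04 and 685.48 expected counts in T1, T2 and T3, and with a floor of 3 counts in the T1 library its T3 level was at least 226-fold higher than its T1 level. Its T2 level was at least 51.7-fold higher than in T1, and T3 was 4.37-fold higher than T2 (3.67 to 5.23); it was the only member called at both steps. It is 1 of 4 transporter genes that share the same protein match in the deposited tables, and its counts are not whole, as RSEM gives where it divides reads among similar genes. SPBPB10D8.04c had 415.24, 102.75 and 55.13 counts (T1, T2, T3), in the opposite order, and SPBPB10D8.05c had 1.15, 474.92 and 27.22 counts (T1, T2, T3), highest in T2. SPBPB10D8.07c had 542.18 counts in T3 and 1132.59 counts in T1 and no T2 value.

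Summed over the 4 copies, T3 had 1310.01 counts and T1 had 1548.98, a scaled ratio of 0.835 (0.775 to 0.899). The copies together were thus lower in T3 than in T1, and which copy the reads came from is uncertain. The other member with counts that were not whole within 0.01 was SPCP20C8.02c, whose values are uncertain in the same way. The remaining 53 members had whole counts in every library.

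Vesicle traffic and protein quality control gave 6 members. The gene bro1, a vacuolar protein-sorting gene, had 3.03, 11.05 and 16.02 FPKM (T1, T2, T3). Its T3 to T1 ratio was 5.29 (3.79 to 7.54), and its T2 to T1 ratio was 3.65 (2.58 to 5.26). The BAR adaptor gene mug137, of a family that binds curved membrane, had 5.37, 18.9 and 20.4 FPKM (T1, T2, T3) and a T2 to T1 ratio of 3.53 (2.47 to 5.14). For these genes most of the difference was already present at 5% glucose, and for mug137 the T3 to T2 ratio was only 1.08.

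The sorting nexin gene snx3, whose family retrieves cargo from endosomes, had 6.64, 12.4 and 29.3 FPKM (T1, T2, T3). Its T3 level was 4.41-fold that of T1 (2.76 to 7.35), divided over both steps. The gene vps51 encodes a subunit of the GARP tethering complex at the Golgi and had 3.74, 6.75 and 14.4 FPKM (T1, T2, T3), again with both steps of similar size. Its T2 to T1 ratio of 1.80 had a counting interval of 0.973 to 3.47, so its first step was not detectable at this depth. The alpha-mannosidase gene mnl1 had 5.67, 6.90 and 14.9 FPKM (T1, T2, T3). The longest member, spo7 with 5093 bases, is annotated as an activator of Arf GTPases needed in sporulation; it had 5.85, 6.09 and 13.5 FPKM (T1, T2, T3), a T3 to T1 ratio of 2.30 (1.92 to 2.77).

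Genes of cell shape, actin and cell wall included bgl2, the second most abundant member in T3. It is annotated as a glucan beta-glucosidase of the cell wall and had 105, 167 and 393 FPKM (T1, T2, T3), a T3 to T1 ratio of 3.75 (3.50 to 4.04). The gene nod1, whose product sits with the exchange factor Gef2 in the cortical nodes that place the division site, was scarce. It had 1.59, 2.82 and 9.24 FPKM (T1, T2, T3) from 12, 22 and 71 counts, and a T3 to T1 ratio of 5.81 (3.13 to 11.8). The coronin gene crn1, which encodes an actin-binding protein of cortical patches, had 7.47, 13.6 and 29.5 FPKM (T1, T2, T3), and was higher at each step.

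The gene gef1 encodes an exchange factor for the polarity GTPase Cdc42 and reached most of its level at 5% glucose, with 17.6, 42.7 and 56.7 FPKM (T1, T2, T3). The tetraspan gene dni2, which acts in cell fusion during mating, had 10.4, 10.95 and 28.2 FPKM (T1, T2, T3), with T1 and T2 indistinguishable at this depth (T2 to T1 ratio 1.05, 0.672 to 1.64).

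Kinases, a cyclin and a transcription factor made up a group of 5. The MAP kinase gene spk1, which carries the pheromone signal, was abundant with 91.2, 110.5 and 236 FPKM (T1, T2, T3) and a T3 to T1 ratio of 2.59 (2.41 to 2.78). The cyclin-dependent kinase gene pef1 had 10.6, 23.04 and 36.1 FPKM (T1, T2, T3), and the cyclin gene clg1 had 34.2, 83.4 and 102 FPKM (T1, T2, T3). Clg1 is a known cyclin partner of Pef1, and both genes were called between T2 and T1 and not between T3 and T2. The pef1 transcript had a T2 to T1 ratio of 2.17 (1.54 to 3.11), and clg1 of 2.44 (2.17 to 2.75).

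The transcription factor gene pho7, which activates phosphate starvation genes, had 16.1, 25.5 and 52.2 FPKM (T1, T2, T3). The kinase gene ppk33 had 9.97, 16.6 and 36.0 FPKM (T1, T2, T3). Both were higher at each step, with counting intervals above 1, and of the 13 phosphate and thiamine genes on the list used here pho7 was the only 1 in the tables. Of 132 genes whose annotation holds the words protein kinase or protein phosphatase, which leaves out spk1 as a MAP kinase, 16 were in the tables. Between T3 and T1, 10 of them were higher in T3 and 4 lower, where 61.4% and 34.5% of all genes of the tables were. Between T3 and T2 it was 2 higher and 4 lower, where the shares were 36.9% and 46.5%.

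DNA repair, checkpoint and chromatin genes were 5 scarce members with T3 levels of 16.2 to 21.1 FPKM. The checkpoint kinase gene chk1, which halts the cell cycle after DNA damage, had 8.63, 8.98 and 17.99 FPKM (T1, T2, T3), and a T3 to T1 ratio of 2.08 (1.77 to 2.46). The gene brc1 encodes a BRCT domain protein that helps cells through replication fork damage; it had 6.42, 13.7 and 21.1 FPKM (T1, T2, T3) and was the only gene of this group called between T2 and T1. The mismatch repair gene msh3 had 7.48, 8.60 and 17.5 FPKM (T1, T2, T3), a T3 to T1 ratio of 2.33 (1.92 to 2.85).

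In the group of 5, brc1 thus stood apart from the others, whose T2 to T1 ratios had counting intervals that included 1. The topoisomerase III gene top3, whose product resolves joined DNA strands together with the helicase Rqh1, had 7.06, 8.64 and 18.3 FPKM (T1, T2, T3). The gene clr2 encodes a subunit of the SHREC silencing complex of heterochromatin and had 5.46, 6.28 and 16.2 FPKM (T1, T2, T3). On a list of 14 checkpoint genes only brc1 and chk1 were in the tables, both higher in T3 than in T1. On a list of 24 heterochromatin and RNAi genes, ago1, clr2 and tas3 were in the tables, all 3 higher in T3 than in T1 and 1 of them, clr2, higher in T3 than in T2. On a list of 22 nuclease and repair genes exo5 and rad52 were in the tables, higher in T3 than in T1 and called in neither direction between T3 and T2. These few genes stand beside a share of 61.4% at least 2-fold higher in T3 among the 383 table genes with values in both T1 and T3.

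RNA production and processing gave 4 members, 3 of them called between T2 and T1, where 14 of all 55 members were. The gene rpp1, annotated as the p30 subunit of the tRNA and rRNA processing enzymes RNase P and RNase MRP, had 4.58, 12.9 and 17.3 FPKM (T1, T2, T3), and a T2 to T1 ratio of 2.81 (1.59 to 5.20). The TFIIIC subunit gene sfc4, of the factor that recruits RNA polymerase III, had 9.41, 20.6 and 35.4 FPKM (T1, T2, T3). The spliceosome gene cwf23 had 6.58, 17.4 and 22.4 FPKM (T1, T2, T3) and was the only gene of a list of 60 splicing factors in the tables. The THO complex gene tho3, of the complex that couples transcription to mRNA export, was the exception in this group: with 12.8, 16.2 and 37.0 FPKM (T1, T2, T3) its larger step lay between T2 and T3.

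Both mitochondrial ribosome members had their larger step between T1 and T2, as 15 of all 55 members did. The large subunit gene mrpl27 had 6.5, 18.2 and 23.6 FPKM (T1, T2, T3), a T2 to T1 ratio of 2.81 (1.67 to 4.92). The gene mrpl20 had 4.94, 10.04 and 15.4 FPKM (T1, T2, T3). Of 11 genes annotated with the words mitochondrial ribosomal protein, only these were in the tables; genes of this ribosome annotated in other words were not counted.

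Ubiquitin and ubiquitin-like pathways gave 4 members, divided between the patterns. The HECT ubiquitin ligase gene pub3 had 20.7, 45.4 and 52.0 FPKM (T1, T2, T3). The NEDD8-conjugating enzyme gene ubc12, which feeds the cullin ligases, had 5.55, 13.8 and 14.7 FPKM (T1, T2, T3). Their T3 and T2 levels lay close together, with T3 to T2 ratios of 1.15 for pub3 and 1.07 for ubc12. The F-box gene pof15, by contrast, had 62.3, 64.7 and 146 FPKM (T1, T2, T3), and fzr3, a meiotic coactivator of the anaphase-promoting complex, had 4.78, 6.38 and 15.2 FPKM (T1, T2, T3), both with the larger step between T2 and T3. Among 74 genes annotated as ubiquitin ligases, F-box, RING or HECT proteins, 3 were in the tables, all higher in T3 than in T1. Of all coding genes 8.08% were in the tables. Of the 383 genes there with values in both T1 and T3, 61.4% were at least 2-fold higher in T3.

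The last 8 members are uncharacterised or little studied, and all 8 were called between T3 and T2, as were 42 of the 55 members. The But2 family gene SPAC27D7.11c was the third most abundant member in T3, with 139, 168 and 378 FPKM (T1, T2, T3) and a T3 to T1 ratio of 2.72 (2.55 to 2.90). SPAC959.06c had 1.70, 3.24 and 13.2 FPKM (T1, T2, T3) from 6, 12 and 48 counts, and the largest ratio of a member with reads in T1, 7.75 for T3 to T1 (3.31 to 22.2) and 4.07 for T3 to T2 (2.13 to 8.41). SPCP20C8.02c had 0.88, 1.49 and 6.04 FPKM (T1, T2, T3) and a T3 to T1 ratio of 6.86 (2.89 to 19.8) and a T3 to T2 ratio of 4.05 (1.99 to 9.09). SPAC959.06c and SPCP20C8.02c, which had the largest T3 to T1 ratios of members with reads in T1, were thus scarce. Their intervals were the widest. A scarce gene must differ more to be called, so this link is in part built in. SPCC663.08c, at 122 FPKM in T3, also had a large T3 to T1 ratio, 4.51.

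SPAPB24D3.07c had 45.02, 59.7 and 157 FPKM (T1, T2, T3), and eti1 had 2.84, 5.45 and 11.5 FPKM (T1, T2, T3). SPAC17A5.05c had 4.34, 5.13 and 12.7 FPKM (T1, T2, T3), SPAC2C4.08 had 9.59, 10.5 and 26.1 FPKM (T1, T2, T3), and SPAC1093.07 had 3.88, 4.28 and 8.77 FPKM (T1, T2, T3). Of these genes only eti1 had steps of similar size, with ratios of 1.92 between T2 and T1 and 2.10 between T3 and T2. Among 379 genes annotated as uncharacterised, fungal or Schizosaccharomyces specific, 67 were in the tables, where 8.08% of all coding genes were. Of these, 13 were higher and 27 lower between T3 and T1, 15 higher and 32 lower between T3 and T2, and 13 higher and 6 lower between T2 and T1. Among genes of the tables with both values, 61.4% were at least 2-fold higher in T3 than in T1 and 34.5% at least 2-fold lower. The shares were 36.9% and 46.5% for T3 against T2, and 32.8% and 13.1% for T2 against T1.

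**Figure D1:**
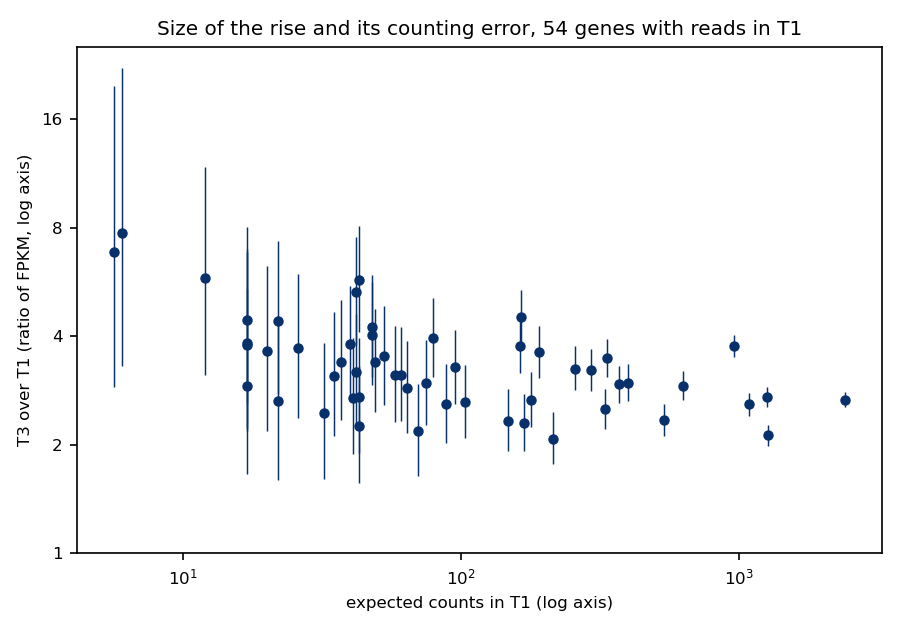
T3 to T1 FPKM ratio (log axis) of the 54 members with reads in T1 against their T1 counts (log axis); bars are 95% counting intervals. All intervals lie above 1, which the calls and the rule built in. The largest ratio, 7.75 for SPAC959.06c, rests on 6 counts in T1 and has an interval of 3.31 to 22.2.

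The rule fixes the direction of both steps. The tables fix their sizes in part, since every member had been called at 1 step or both and a called step was at least 2-fold, but not which step that was. Between T3 and T2, 42 members were at least 2-fold higher in T3, with ratios of 1.07 to 4.37 and a median of 2.17, where 36.9% of 217 genes of the tables and 36.7% of those with 3 values were; 46.5% of the 217 were at least 2-fold lower in T3. Between T2 and T1, 15 members were at least 2-fold higher in T2, with ratios from 1.02 up and a median of 1.43, where 32.8% of 198 genes and 29.4% of those with 3 values were, and 13.1% of the 198 were at least 2-fold lower in T2. The counting interval lay above 1 for 50 of 55 members between T3 and T2, against 44.6% of genes with 3 values, and for 28 of 54 members between T2 and T1, against 53.5%. It did so at both steps for 23 members.

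By the authors' calls, 13 members differed at the first step (T2 against T1) only, 41 at the second step (T3 against T2) only and SPBPB10D8.06c at both. The classes rest on these calls, so the shares that follow restate them as a description. In the first-step genes, 59.2% to 94.5% of the log2 rise lay between T1 and T2, with a median of 77.8%. In the second-step genes it was 3.08% to 50%, with a median of 21.2%. The step between T2 and T3 was the larger in 40 members and that between T1 and T2 in 15. The first-step genes were brc1, cwf23, rpp1, sfc4, gef1, clg1, pef1, mrpl20, mrpl27, pub3, ubc12, bro1 and mug137. No oxidoreductase, other enzyme or uncharacterised gene was among them, and the counts per group are too few and the groups too freely drawn for a comparison to be made.

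**Figure D2:**
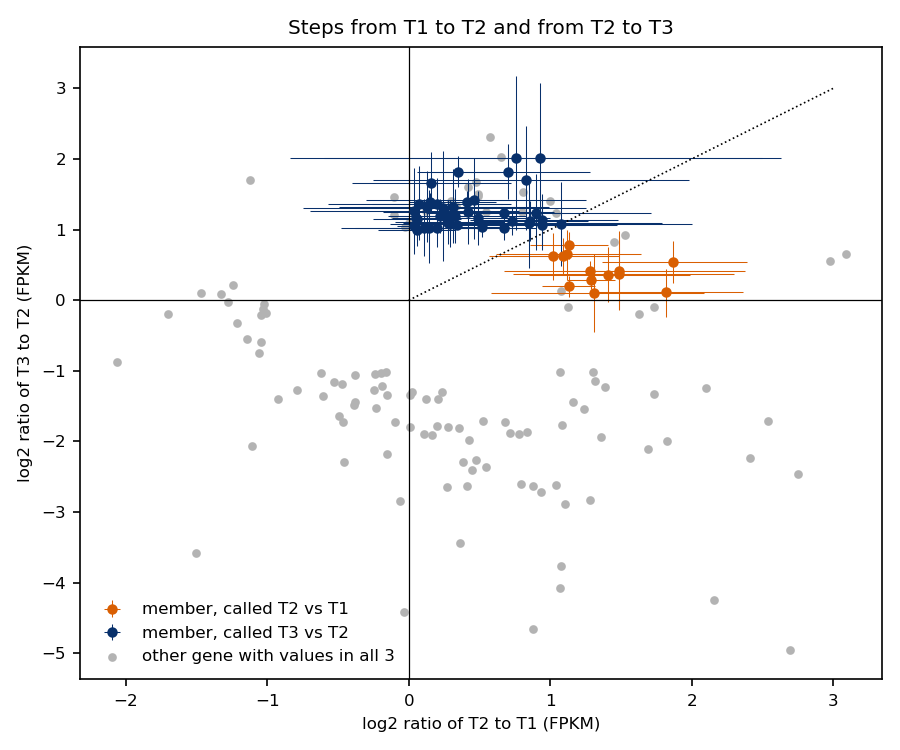
Log2 FPKM ratio of T3 to T2 (vertical) against that of T2 to T1 (horizontal) for 54 members (coloured by the step at which they were called, with bars for 95% counting intervals) and for 116 of the other 122 genes with values in all 3 libraries. The members lie at positive values of both axes by the rule, the 13 first-step genes at a log2 ratio of T2 to T1 above 1 and the second-step genes at a log2 ratio of T3 to T2 of about 1 or more. The dotted line marks equal steps, and SPBPB10D8.06c and 6 other genes without reads in a library or with a log2 ratio beyond 5 are not drawn.

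**Figure D3:**
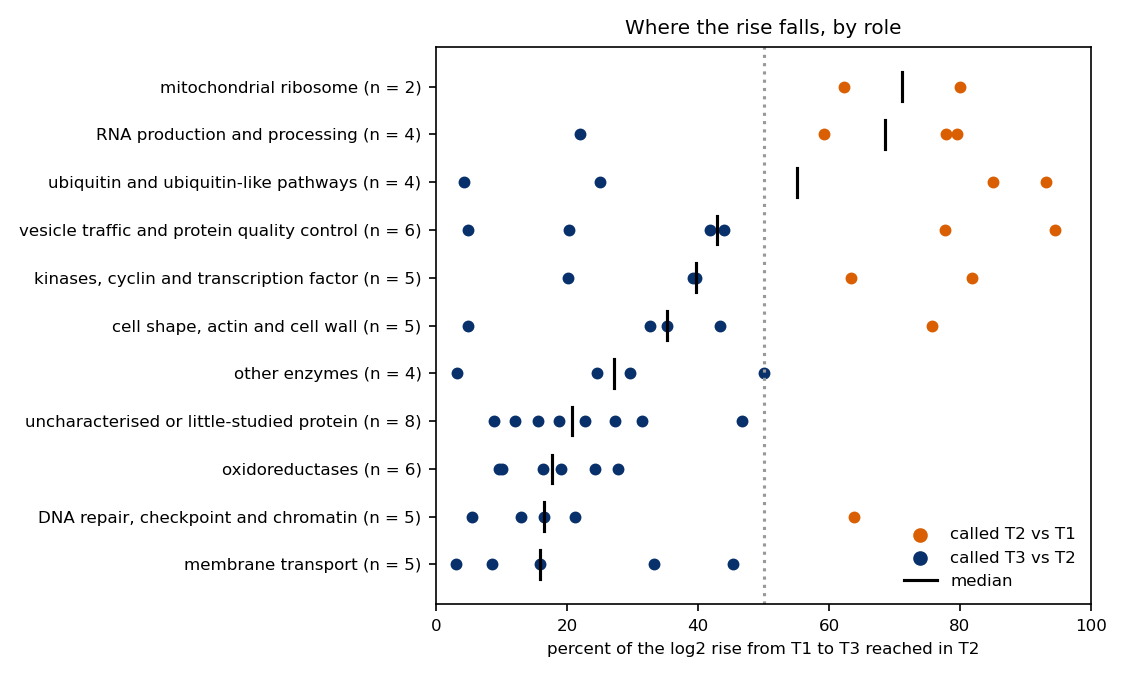
Percent of the log2 rise from T1 to T3 that lay between T1 and T2, for each of the 54 members with reads in T1, by role; each point is a gene, coloured by the step at which it was called, and each black bar is the median of its role. Both mitochondrial ribosome genes and 3 of the 4 RNA genes lie above 59%, and the 6 oxidoreductases lie under 30%. Of all members, 41 were called at the second step only, and their median is 21.2%.

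The members nearest the edge of the rule had nearly equal levels at 1 of the steps. Between T2 and T1 the smallest ratios were 1.025 for hem4 (0.948 to 1.11), 1.028 for dip5 (0.616 to 1.72) and 1.037 for pof15 (0.920 to 1.17). Just outside, pex6 had 16.9, 16.6 and 34.2 FPKM (T1, T2, T3), SPAC7D4.08 had 4.14, 3.86 and 10.6 FPKM (T1, T2, T3), and SPBC23G7.10c had 59.8, 55.5 and 128 FPKM (T1, T2, T3). Between T3 and T2 the smallest ratios were 1.070 for ubc12 (0.732 to 1.56), 1.077 for mug137 (0.853 to 1.36) and 1.147 for pub3 (1.04 to 1.27). Just outside this edge, mil1 had 22.9, 50.01 and 46.9 FPKM (T1, T2, T3), SPCC63.13 had 5.12, 17.02 and 15.9 FPKM (T1, T2, T3), and wtf16 had 3.56, 11.02 and 9.67 FPKM (T1, T2, T3). Genes on both sides of the edge thus had nearly the same shapes.

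Chromosome and length were not used by the rule. Of the 55 members, 25 lay on chromosome I, 10 on chromosome II and 20 on chromosome III of the assembly ASM294v3. Chromosome III, the smallest, thus held 36.4% of the members, against 27% of the other 122 genes with 3 values, 23.9% of the placed genes of the tables and 17.9% of 5113 protein-coding genes. Chromosome II held 18.2%, against 34.4%, 34.8% and 36.5%. Among the 37 genes that fell over the 3 libraries, 29.7% lay on chromosome III, and among the 54 highest in T2 it was 27.8%. With the 24 rising genes that were left out included, chromosome III held 34.2% of 79. Of 216 placed genes at least 2-fold higher in T3 than in T1, 25.9% lay on chromosome III. Of 122 placed genes at least 2-fold lower in T3, it was 23%. No test was made of these shares, and the members are not independent of each other.

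**Figure D4:**
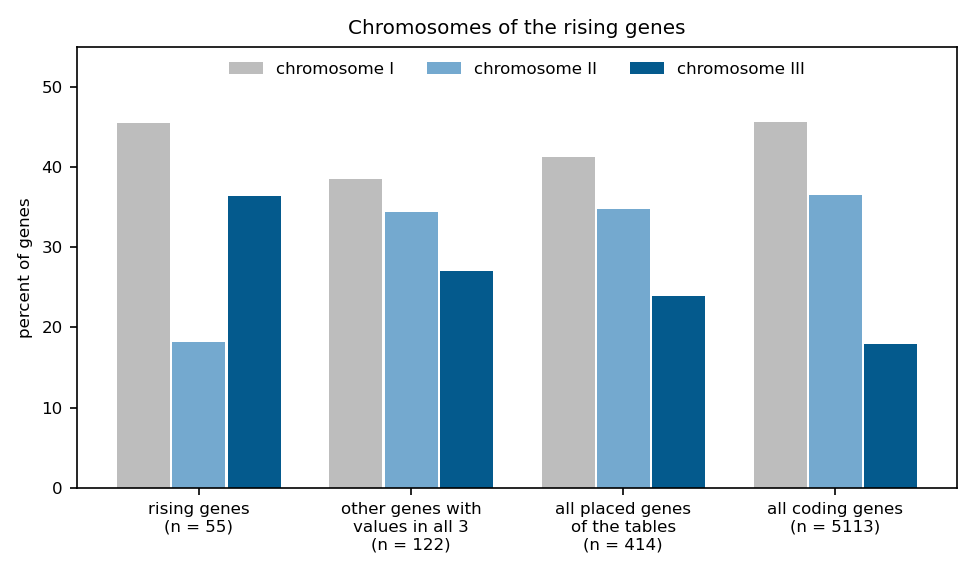
Percent of genes on chromosomes I, II and III of ASM294v3 among the 55 members, the other 122 genes with values in all 3 libraries, 414 placed genes of the tables and 5113 protein-coding genes. Bars start at 0; chromosome III holds 36.4% of the members and 17.9% of all coding genes.

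The members were 598 to 5093 bases long with a median of 1797, near the 1825 bases of the other genes with 3 values. The 37 falling genes were shorter, with a median of 1157 bases, and 43.2% of them were under 1000 bases, against 20% of the members. The longest members after spo7 were abc2 with 4700, chk1 with 4380, and msh3 and nic1 with 3506 bases each.

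Of the 110 genes next to the members in the order of coding genes, 17 were in the tables, but 4 of these are members themselves. Of the other 106 neighbours 13 were in the tables, 12.3% against 7.08% of all coding genes that are not members. Among them are SPBPB10D8.05c and SPBPB10D8.07c, copies of the member SPBPB10D8.06c, and meu27 and SPCC777.03c, which overlap members. Whether reads shared with a member brought these genes into the tables was not tested. Of the 13 neighbours, 9 were at least 2-fold higher in T3 than in T1, where 61.4% of the 383 table genes with both values were. The pair SPAPB24D3.07c and SPAPB24D3.08c lie side by side on the same strand without overlap, and were 3.48-fold and 2.92-fold higher in T3 than in T1. The dehydrogenase gene SPCC663.08c lies beside osr1, which had 25.4, 38.0 and 188 FPKM (T1, T2, T3) and a T3 to T1 ratio of 7.41.

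The genes hem4 and spk1 lie on opposite strands and overlap. Their T2 to T1 ratios were 1.02 for hem4 (0.948 to 1.11) and 1.21 for spk1 (1.12 to 1.31). Both had whole counts in every library, and whether reads were assigned by strand is not stated. By the gene extents of ASM294v3, 17 members, 30.9%, overlap a neighbouring coding gene, against 42.0% of all coding genes. The transcripts that the authors counted may have other ends, so these overlaps are uncertain. In 4 of these cases the overlapping neighbour was in the tables too: hem4 and spk1 with each other, chk1 with meu27 (2.09-fold higher in T3 than in T1) and dip5 with SPCC777.03c (2.53-fold higher in T3 than in T1). For all 4 the part of the shared stretch in the counts was not tested.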

How the data were processed

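RNA of wild type cells, 3 replicates per glucose concentration, was pooled and sequenced as 1 library each. According to the study's methods, SOAPnuke 1.5.6 served as read filter. The authors then mapped reads with BWA 0.7.12 (genome) and Bowtie 1.1.2 (genes), quantified with RSEM 1.2.25 and called genes by NOIseq 2.14.1 and a Poisson method. As for the genome, its build was not given in the sources used here. Each deposited table holds the authors' expected counts from RSEM, not normalised, and FPKM values, which the authors scaled by length and library size, with 0.001 FPKM for a count of 0, treated as 0 here. Their log2 ratio, p-value and FDR columns hold the authors' comparisons and were not used, except that presence in a table counts as called.

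The 3 tables were joined by gene; no cell disagreed between tables. Of the 55 members, 52 were matched to ASM294v3 by accession and 3 by description, but only 7 with the same accession version. The assembly served for names, chromosomes, gene order, strands and overlaps of gene extents. The transcripts that the authors counted may have other ends, and no coordinates or sequences are given. Promoter motifs were planned and not searched. Ratios and intervals were computed with scipy 1.17.1, pandas 2.3.3 and numpy 2.4.6 under Python 3.11.15, plots with matplotlib 3.10.9, and the interval script was tested on simulated counts. Counts were rounded for the intervals, and a count of 0 was set to a floor of 3 for lower bounds.

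The members, the 30 gene lists and the alternatives were chosen with earlier results of these data known. Every member is named with its levels. Ratios with intervals go to the 10 largest T3 to T1 ratios, the 5 largest T2 to T1 and T3 to T2 ratios and the 5 highest T3 levels. The 5 longest genes and the genes nearest the edge of the rule have them too. The genes akr7, dni2, pef1 and clg1 were given intervals for their role, and vps51 for its first step. Of the 30 lists, 15 hold a member.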

Additional observations from a re-analysis of the deposited data

How the results depend on the processing

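No paired analysis was possible because each concentration had 1 library and no result comes from a test; for the same reason no replicate could be left out. Requiring both steps to lie outside their counting intervals left 23 of the 55 members. Of these, 23 were at least 2-fold higher in T3 than in T1, 15 (42 without the requirement) in T3 than in T2 and 9 (15) in T2 than in T1, the median log2 ratio of T2 to T1 was 0.90 (0.52), and 14 (40) had the larger step from T2 to T3. With 1 FPKM added to every value, the median log2 ratio was 1.54 (1.67) for T3 to T1 and 1.05 (1.12) for T3 to T2, and that of SPBPB10D8.06c was 6.58 for T3 to T1 and 4.51 for T2 to T1. Without the 17 members that overlap a coding gene, an alternative added after seeing the data, 38 members remained and 26 had the larger step from T2 to T3. The count of members was 44 with the authors' second sheets, 50 with at least 10 FPKM in T3, 47 with at least 20 counts in T1, 53 with whole counts, 44 with at least 1000 bases and 55 with unscaled counts. The members were chosen for rising at both steps, so these settings could hardly reverse a direction, and none did. Nothing is read from this. Depth limits the scarce members most, since 8 had fewer than 20 counts in T1.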

Other observations

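Several lists with at most 1 member also had other genes in the tables. The TRAPP tethering complex, which acts in vesicle traffic, had bet5, trs31 and trs130 there, with 2 higher in T3 than in T1 and 1 lower in T2 than in T1. Of 27 meiosis genes, rec12 and rec15 of meiotic recombination were in the tables, both higher in T3 than in T1. Of 27 cyclic AMP and TOR signalling genes, cgs1, cgs2 and pka1 were in the tables, 2 of them below T1 in the T3 library and none above. Of 20 general stress genes, 6 were in the tables: plr1 stood above T1 in the T3 library and the other 5, gld1, gut2, hsp104, pyp2 and rds1, stood below it. No gene of the 29 of DNA replication and none of the 26 of the nuclear exosome was in the tables. Only 8.08% of all coding genes were there, so nothing is read from these absences. Of the 383 genes there with values in both T1 and T3, 61.4% were at least 2-fold higher in T3 than in T1.

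Beside the members, clg1 lies next to scr1, the gene of the glucose repressor, which had 40.0 FPKM in T3 and 85.1 FPKM in T1. The neighbour of SPCC417.12 on the opposite strand, SPCC417.15, had 209, 196 and 59.5 FPKM (T1, T2, T3), against the order of SPCC417.12 itself.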
